A study of Mus musculus with 23 samples.

Results

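The genes described here are the cytosolic ribosomal protein genes, the genes for the protein parts of the ribosomes that translate nuclear messages. They were chosen by symbol: Rpl or Rps followed by a number, with a suffix such as a, x or l allowed, plus Rplp0, Rplp1, Rplp2 and Rpsa, leaving out pseudogenes and the Rps6k kinases. On the arrays 60 such genes, of 19938 measured, had a transcript cluster (the set of probes summarised into 1 value) naming them alone. Of the 60, 38 belong to the large and 22 to the small subunit. They comprise 54 core genes (33 large, 21 small) and 6 copies whose symbols carry an l: Rpl3l, Rpl7l1, Rpl10l, Rpl32l, Rpl39l and Rps27l. A further 25 symbols of the RefSeq table fit the rule but had no cluster of their own, among them Rpl3, Rpl11, Rpl39, Rps27 and Rpl36al, and 18 of the 25 appeared in clusters that name several genes.

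The series measured tumour cells and blood vessel endothelial cells that were sorted by flow cytometry from tumours of Py2T, a murine breast cancer cell line, grown in the mammary fat pad of female FVB/N mice. Nintedanib, an inhibitor of VEGF, FGF and PDGF receptor kinases, was given at 50 mg/kg body weight for 7 days (short-term) or 21 days (long-term), and the untreated tumours had been matched in size to the long-term ones. Endothelial cells were profiled on 3 untreated, 3 short-term and 5 long-term arrays, and tumour cells on 3 untreated, 4 short-term and 5 long-term arrays, 23 in all. All animals carried the same cell line, 1 set of untreated tumours serves both durations, and the age of the animals is not given in the sources used here. The labels call the samples biological replicates without naming the animals behind them, so p-values measure the spread between these samples.

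A ribosome is built from ribosomal RNA and one copy of most of its proteins, so cells make these proteins in near-matched amounts. Their messages are among the most abundant in dividing cells, and in mammals most of them begin with a C followed by a run of pyrimidines, the terminal oligopyrimidine (TOP) tract, through which growth signalling by mTORC1 controls their translation. Several ribosomal proteins also act outside the ribosome: Rpl5, Rpl11 and Rpl23 bind Mdm2, the inhibitor of p53, and Rps6 is the substrate that gave the S6 kinases their name.

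Start-site sequences from RefSeq (GRCm38.p6) matched 49 of the 60 genes by symbol, with 58 annotated starts. The 30-base windows below run from 15 bases before the annotated start to 15 bases from it on, and are shown for genes that differed between the cell types and for genes with a clear TOP-like tract. Capitals mark the longest run of 5 or more pyrimidines opened by a C, and a window in lower case throughout holds none.
Rpl10 (chrX:74270801-74270830, plus strand): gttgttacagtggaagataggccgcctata
Rpl19 (chr11:98026695-98026724, plus strand): tgaccaaacgCCCTCactgcgcatgtgcgc
Rps27l (chr9:66946071-66946100, plus strand): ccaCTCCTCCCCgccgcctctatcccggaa
Rps2 (chr17:24720048-24720077, plus strand): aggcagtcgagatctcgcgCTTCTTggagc
Rps12 (chr10:23787195-23787224, minus strand): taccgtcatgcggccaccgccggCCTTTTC
Rps6 (chr4:86857353-86857382, minus strand): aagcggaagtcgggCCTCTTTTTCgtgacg
Rps7 (chr12:28635939-28635968, minus strand): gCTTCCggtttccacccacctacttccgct
Rpl28 (chr7:4792950-4792979, plus strand): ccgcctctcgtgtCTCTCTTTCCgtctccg
Rpl38 (chr11:114668565-114668594, plus strand): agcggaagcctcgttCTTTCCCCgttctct
Rplp2 (chr7:141447636-141447665, plus strand): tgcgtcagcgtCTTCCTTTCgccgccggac

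In Rpl38 the tract opens exactly at the annotated first base, and in Rps6 it opens 1 base before it. A C and 4 more pyrimidines stood exactly at the annotated first base in 10 of the 58 member windows (17.2%), against 2.51% of 32851 mouse promoters. A tract anywhere within 15 bases of the start was found in 32 (55.2%), against 36.4% of all promoters. Annotated starts can lie some bases from the one a cell uses, so the first share depends on the annotation. The letters CCGGAAG, the core bound by ETS factors, occurred on either strand in 20 of the 58 300-base promoters (34.5%), against 8.86% of all. The E-box CACGTG occurred in 12.1% against 7.15%, the YY1 core AAGATGG in 8.62% against 6.34%, and TATAAA in 10.3% against 13.6%. These are matches of letters, not binding sites, and no test was run on them. The 250 bases before the start of Rpl19 and Rps6, the genes that differed between the cell types in opposite directions, are printed with the ETS core in capitals, which in Rpl19 reads on the other strand.
Rpl19 (chr11:98026460-98026709, plus strand): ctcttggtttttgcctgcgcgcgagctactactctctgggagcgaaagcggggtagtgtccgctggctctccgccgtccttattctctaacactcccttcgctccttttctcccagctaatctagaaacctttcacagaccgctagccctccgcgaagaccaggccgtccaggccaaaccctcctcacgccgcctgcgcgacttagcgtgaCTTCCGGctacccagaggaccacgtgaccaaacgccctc
Rps6 (chr4:86857368-86857617, minus strand): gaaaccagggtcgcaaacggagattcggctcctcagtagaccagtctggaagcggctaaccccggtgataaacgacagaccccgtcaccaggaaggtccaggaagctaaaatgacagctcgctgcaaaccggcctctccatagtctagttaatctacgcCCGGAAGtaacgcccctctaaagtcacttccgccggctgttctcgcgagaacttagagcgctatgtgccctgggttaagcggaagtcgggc

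All values are log2 signals as the authors deposited them, normalised by RMA, which gives every array nearly the same distribution. Differences in total RNA between samples are therefore removed and every change is relative to the other transcripts of the array. In bulk samples fewer cells of a type and less RNA per cell cannot be told apart. Endothelial marker genes were higher on endothelial than on tumour arrays in 12 of 12 cases at each treatment stage. The mean log2 signal of 13 macrophage markers ran from 5.64 to 7.90 on untreated, 4.74 to 5.17 on short-term and 5.16 to 7.94 on long-term endothelial arrays, against 4.36 to 5.30 on tumour arrays. Endothelial minus tumour differences of these 13 were positive for 13 in untreated cells (1 called), 10 in short-term cells (0 called) and 13 in long-term cells (5 called). Of 8 pericyte markers, 5 were called higher in untreated, 6 in short-term and 5 in long-term endothelial cells, with median differences of 2.09, 2.17 and 2.04, and 1, Pdgfrb, was called lower at each stage. The mean of 10 epithelial markers reached 7.49 on long-term endothelial array 4, against 5.38 to 6.41 on the other endothelial arrays. On the tumour arrays it ran from 6.38 to 7.02. Of these 10, 3, 4 and 4 were called lower in untreated, short-term and long-term endothelial than tumour cells, and 0, 0 and 2 higher. Their median differences were -0.10, -0.36 and 0.16. For 19 dissociation and immediate early genes the median difference from untreated tumour cells was 0.84 short-term and 0.32 long-term. Of them 3 and 1 were called higher. In endothelial cells it was 0.71 and 0.76, where limma called 0 each time and 9 and 11 had an unadjusted p under 0.05. The part of these markers in the results below was not tested.

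The ribosomal protein genes were among the brightest on the array. The mean signal of the 54 core genes over all arrays ran from 6.04 to 13.05 with a median of 11.84, 47 of the 54 exceeded 10, and 44 lay in the top 1% of all genes. Rps29, a small subunit zinc-binding protein, was the brightest at 13.05, followed by Rps28 at 12.75 and Rpl41 at 12.72. A few core genes had dim clusters: Rpl12 at 6.04, Rpl34 at 7.06, Rpl30 at 7.10, Rps15a at 7.15, Rplp2 at 7.83 and Rpl22 at 8.22. A cluster's signal depends on its probes as well as on the message, so these values do not rank the genes by abundance. The copies Rpl39l (3.35), Rpl3l (3.48) and Rpl10l (4.25), which are known from testis or striated muscle, were dim, at percentiles 14.9, 18.7 and 39.1 of all genes.

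Replicate arrays differed more in endothelial cells. The residual SD of a core gene had a median of 0.191 log2 units in endothelial cells (0.069 to 0.914) and of 0.069 in tumour cells (0.027 to 0.41), and 52 of the 54 were more variable in endothelial cells. Over all genes the medians were 0.255 in endothelial and 0.156 in tumour cells, and over the 377 genes with a mean above 10 they were 0.294 in endothelial and 0.119 in tumour cells. The tightest in tumour cells was Rpl23, at 0.027. Rpl12 had the widest endothelial spread: it was at 5.19, 5.69 and 5.56 on untreated, 8.02, 5.10 and 5.93 on short-term and 7.03, 5.60, 5.54, 6.02 and 5.17 on long-term endothelial arrays, against 5.61 to 6.62 on the tumour arrays. Its 2 high values fell on short-term array 1 and long-term array 1.

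**Figure D1:**
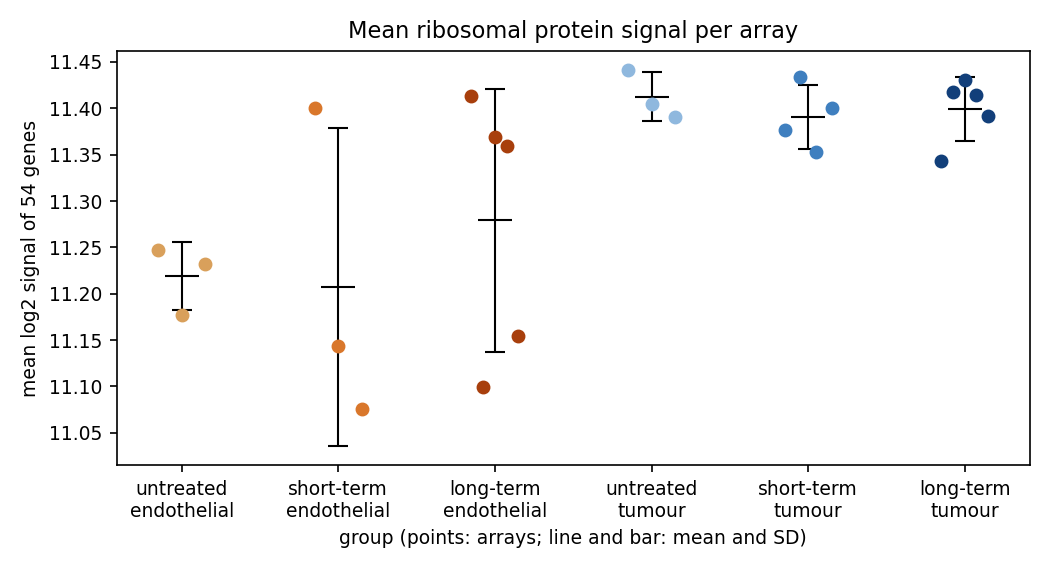
Mean log2 signal of the 54 core ribosomal protein genes on each array, by cell population and treatment. Points are arrays, and the line and bar give the group mean and SD. The 12 tumour arrays lie between 11.34 and 11.44, and 7 of the 11 endothelial arrays lie below all of them.

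The mean over the 54 core genes showed the same contrast in spread. It was 11.25, 11.18 and 11.23 on untreated, 11.40, 11.14 and 11.08 on short-term, and 11.41, 11.10, 11.37, 11.36 and 11.15 on long-term endothelial arrays. On tumour arrays it was 11.39 to 11.44 untreated, 11.35 to 11.43 short-term and 11.34 to 11.43 long-term. All 3 untreated endothelial arrays were below every tumour array, whereas short-term array 1 and long-term arrays 1, 3 and 4 lay within the tumour range. Macrophage marker means on those 4 arrays were 4.74, 5.16, 7.94 and 7.19. Neutrophil marker means on them were 5.59, 3.91, 4.88 and 4.21, and the 5.59 of short-term array 1 was the highest of all 23 arrays, against 4.14 and 3.84 on the other short-term endothelial arrays. Fibroblast marker means were 6.72, 5.68, 6.85 and 6.01, within the 5.68 to 6.88 of the endothelial arrays. The part of these markers in the level was not tested.

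Within groups many core genes varied together on endothelial arrays, and fewer did on tumour arrays. The median correlation between pairs of core genes, taken over each array's deviation from its group mean, was 0.337 over the 11 endothelial arrays and 0.125 over the 12 tumour arrays. Correlation with the mean of the other core genes was above 0.5 for 34 of the 54 genes in endothelial and 18 in tumour cells. It was below 0 for 6 genes in endothelial and 10 in tumour cells. In endothelial cells it was highest for Rpl22 (0.933) and lowest for Rpl21 (-0.628), and in tumour cells lowest for Rplp1 (-0.577). All pairs share arrays and their normalisation, and no matching values were taken for other genes, so these are descriptions of the arrays.

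Nintedanib changed none of the 60 genes past the threshold, an adjusted p under 0.05 by limma with Benjamini-Hochberg adjustment over all genes. In tumour cells 0 of 60 were called after short-term treatment, where 0.507% of all genes were called (0.396% higher, 0.11% lower), 0 after long-term treatment, where 0.0903% were (0.0752% higher, 0.015% lower), and 0 between long-term and short-term treatment, where 1.22% were (0.622% higher, 0.597% lower). At an unadjusted p under 0.05 the counts were 1, 4 and 0 of 60, against 11%, 10.1% and 11.9% of all genes. In endothelial cells 0 of 60 were called in each of the same comparisons, and 0% of all genes were called in any of them. The unadjusted counts there were 4, 0 and 4 of 60, against 8.17%, 4.18% and 9.4% of all genes. The endothelial counts therefore say nothing particular to ribosomal protein genes.

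The tumour arrays bounded the size of a change in signal closely. Most core genes lie near the top of the signal range, whose highest value was 14.06. How fully such bright signals follow a change in message was not tested. The median difference of the 60 genes was -0.02 short-term, -0.02 long-term and 0.0049 between long-term and short-term, against -0.01, -0.01 and -0.0024 for all genes. The whole 95% interval lay within 0.5 log2 units of 0 for 56, 56 and 59 of the 60, compared with 71%, 73.4% and 77.3% of all genes. The median width to either side was 0.156, 0.149 and 0.137. In endothelial cells the medians were -0.01, 0.09 and 0.06, against 0.06, 0.01 and -0.04 for all genes. The short-term endothelial median had no settled sign: with arrays left out in turn it ran from -0.08 without short-term array 1 to 0.04 without untreated array 3. The median between long-term and short-term endothelial cells ran from 0.03 without long-term array 1 to 0.16 without short-term array 1. The interval stayed within 0.5 for 28, 31 and 35 of the 60, compared with 33%, 45.1% and 39.3% of all genes. The groups did not overlap for 9 genes in short-term and 6 in long-term tumour cells (10.2% and 6.03% of all genes), and for 5 and 1 in endothelial cells (13.8% and 3.51%). Between long-term and short-term cells they did not overlap for 3 genes in tumour cells (5.34%) and 1 in endothelial cells (5.9%).

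**Figure D2:**
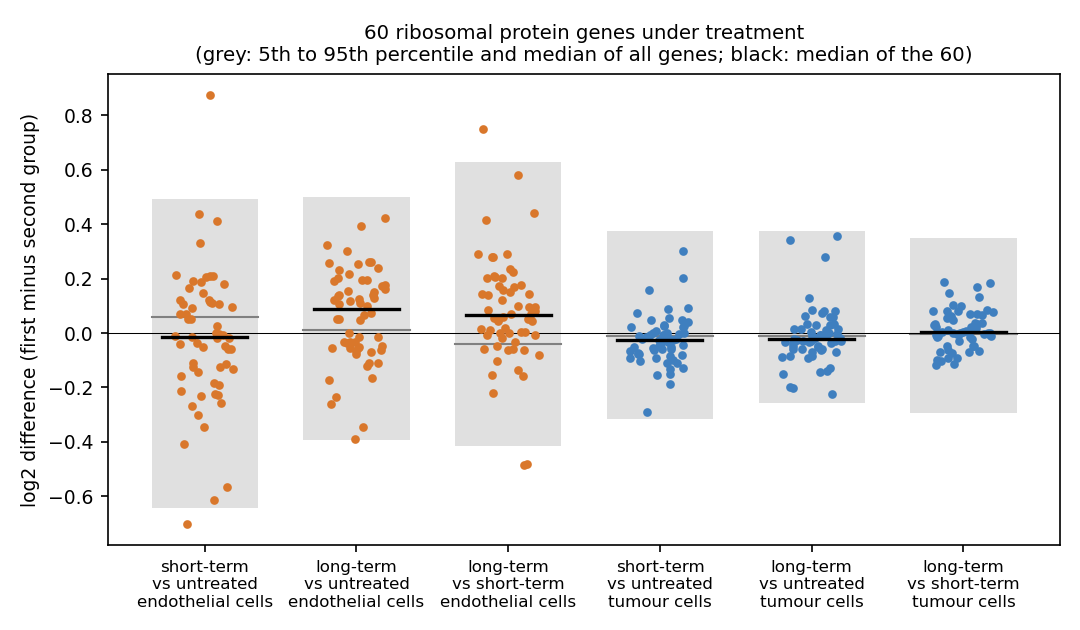
Log2 difference of each of the 60 ribosomal protein genes in the 6 treatment comparisons, first group minus second. Points are genes, the black line is their median, and the grey box and line give the 5th to 95th percentile and the median of all genes. No point passed the threshold, and tumour cell points lie closer to 0 than endothelial ones.

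In long-term tumour cells Rps18, Rps28, Rpl29 and Rps13 had the smallest p, all with negative differences, and none passed. Rps18, near the head of the small subunit, was at 11.63, 11.77, 11.85, 11.65 and 11.76 on long-term and 11.92, 11.94 and 11.93 on untreated tumour arrays, a difference of -0.20 ± 0.07 (SE) with an adjusted p of 0.354 by limma. The 5 long-term arrays were all below the 3 untreated ones. Rps28 was at 12.72, 12.69, 12.79, 12.66 and 12.75 long-term against 12.82, 12.93 and 12.83 untreated, again without overlap (-0.14 ± 0.06), and short-term it was at 12.73, 12.76, 12.69 and 12.74 (-0.13 ± 0.06). Rps15a differed by -0.19 ± 0.08 short-term and Rpl29 by -0.20 ± 0.09 long-term. On the positive side Rpl7l1, a copy of Rpl7 with a role in ribosome assembly, had differences of 0.30 ± 0.20 short-term and 0.36 ± 0.19 long-term, and neither passed.

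In short-term endothelial cells the values with the smallest p went both ways. Rpl21 was at 11.57, 11.67 and 11.76 on short-term against 12.10, 12.24 and 11.88 on untreated arrays, lower on all 3, with a difference of -0.41 ± 0.14 (95% interval -0.72 to -0.10) and an adjusted p of 0.564 by limma. Rpl9 was at 11.63, 10.81 and 10.83 against 11.58, 12.17 and 11.62 (-0.70 ± 0.26), and the groups overlapped through short-term array 1. Rpl6 was at 11.75, 11.73 and 12.18 against 11.48, 11.47 and 11.47, higher on all 3 (0.41 ± 0.15, adjusted p = 0.588 by limma). Rps7, which binds Mdm2, was at 11.88, 11.84 and 11.31 against 11.16, 11.003 and 11.55 (0.44 ± 0.19), with overlap.

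After long-term treatment the endothelial value with the smallest p was that of Rps2, a small subunit protein near the messenger RNA entry. It was at 11.89, 11.65, 11.80, 11.75 and 11.76 on long-term against 11.44, 11.49 and 11.69 on untreated arrays, a difference of 0.23 ± 0.11 (interval -0.01 to 0.48) that did not pass. Between long-term and short-term endothelial cells Rps7 (-0.48 ± 0.17), Rps2 (0.29 ± 0.11), Rpl9 (0.58 ± 0.23) and Rpl30 (0.75 ± 0.32) had the smallest p, with adjusted p from 0.464 to 0.518 by limma. These comparisons share the short-term arrays with those above.

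Whether a treatment effect differed between the cell types was tested directly. For the short-term effect 0 of 60 genes were called, with 0.0953% of all genes called (0.0301% higher, 0.0652% lower), and for the long-term effect 0, with 0% called. In each, 3 of the 60 had an unadjusted p under 0.05, against 11% of all genes for the short-term and 5.33% for the long-term effect. The endothelial minus tumour difference of the short-term effect was 0.44 ± 0.15 for Rpl6 and -0.63 ± 0.27 for Rpl9, and for the long-term effect Rps18 had 0.52 ± 0.22. The median over the 60 was 0.05 short-term and 0.11 long-term, against 0.06 and 0.03 for all genes, and the short-term median turned to -0.05 without short-term endothelial array 1.

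Of the genes singled out for their known roles, none was called under treatment. The stalk proteins, which recruit elongation factors, had short-term tumour differences of 0.07 ± 0.06 (Rplp0), 0.03 ± 0.10 (Rplp1) and -0.06 ± 0.11 (Rplp2). The Mdm2-binding Rpl5 had 0.05 ± 0.09 in short-term and 0.08 ± 0.09 in long-term tumour cells. The laminin-binding Rpsa had 0.09 ± 0.06 and -0.01 ± 0.06. Short-term tumour arrays lay above all untreated ones for Rplp0 and Rpsa, by differences no larger than 0.09. The S6 kinase substrate Rps6 was at 12.02, 11.89 and 11.97 in untreated, 11.95, 12.01, 11.93 and 11.94 in short-term and 11.87, 12.04, 11.92, 11.93 and 11.99 in long-term tumour cells, and the 3 groups overlapped. These are message levels and say nothing of its phosphorylation.

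Endothelial and tumour cells did differ. In untreated cells 8 of the 60 genes were lower in endothelial cells and 0 were higher by limma's adjusted p, that is 13.3% of the genes, where 18.3% of all genes were called, 10.2% lower and 8.18% higher. With both directions together the called share was thus not above the background, while the lower calls alone, 13.3% against 10.2%, were. Of the 60 differences 46 were negative and 14 positive, where 54.4% of all genes were positive. The median was -0.15 against 0.03 for all genes, and lay within the quartiles of all genes, -0.29 to 0.19. The 60 are mostly brighter than other genes, and no background matched for level was taken. The 3 endothelial arrays did not overlap the 3 tumour arrays for 30 genes, 28 of them lower, with 35.7% of all genes separated in this way. The median was -0.22 for the 33 large and -0.13 for the 21 small core genes. In short-term cells these medians were nearly equal, -0.1526 and -0.1555, and in long-term cells they were -0.1539 and -0.0899. The untreated count of called genes depended on single arrays. It was 4 without untreated tumour array 1, and 5 without untreated tumour array 2 or 3 or untreated endothelial array 1 or 2, where array 2 left 4 lower and 1 higher.

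In short-term cells 13 genes were lower and 3 higher (26.7% called, against 40% of all genes, 17% lower and 23% higher). In long-term cells 7 were lower and 2 higher (15% called, against 32% of all genes, 16.3% lower and 15.7% higher), and 5 were called without long-term tumour array 2. The medians were -0.14 and -0.09, against 0.11 and 0.06 for all genes. Groups did not overlap for 23 genes short-term, 17 of them lower, and for 9 long-term, all lower (44.3% and 23.5% of all genes). With each array centred on its median over genes the split was 0 higher and 22 lower short-term and 0 higher and 11 lower long-term. With that scaling the short-term median of all genes was -0.0041, against 0.11 as deposited. The 3 cell type comparisons share no arrays but share one estimate of the spread. In them 35 of the 60 genes (58.3%) were negative each time, against 29.2% of all genes. Of the 60, 19 were called at least once, and the matching share of all genes was not taken. At each stage a smaller share of the 60 than of all genes was called with both directions together. By lower calls alone the share of the 60 was the larger untreated and short-term and the smaller long-term. No test was run on these shares.

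**Figure D3:**
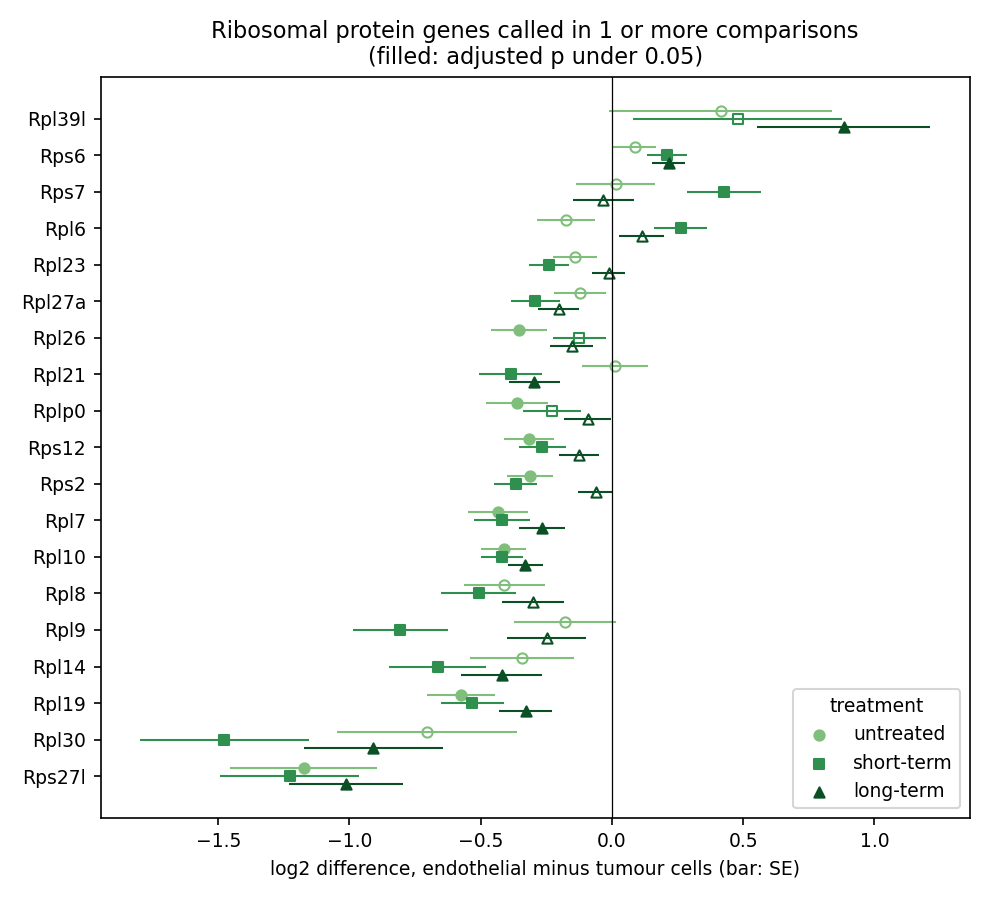
Log2 difference, endothelial minus tumour cells, of the 19 ribosomal protein genes called in 1 or more of the untreated, short-term and long-term comparisons. Points are estimates, bars are SE and filled symbols have an adjusted p under 0.05. Rpl10, Rpl19, Rpl7 and Rps27l are filled on the negative side each time, and Rps6, Rps7, Rpl6 and Rpl39l are the genes filled on the positive side.

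Rpl10, Rpl19, Rpl7 and Rps27l were lower in endothelial cells at every stage, 6.67% of the 60, where 7.08% of all genes were. Rpl10, which joins the large subunit late and lies near the tRNA sites, was at 12.04, 11.92 and 12.07 in untreated endothelial against 12.47, 12.41 and 12.40 in untreated tumour cells (-0.41 ± 0.09, adjusted p = 0.00167 by limma). It was at 11.93, 12.11 and 11.88 against 12.34, 12.30, 12.55 and 12.36 short-term (-0.42 ± 0.08) and at 12.07, 12.02, 12.25, 12.02 and 11.96 against 12.38, 12.39, 12.39, 12.38 and 12.42 long-term (-0.33 ± 0.07). Every endothelial array was below every tumour array, and all 6 of its clusters gave a negative difference in each comparison. The call held in all 33 alternatives for each stage. For every cell type comparison these include leaving out each of the 23 arrays in turn. Most of those arrays belong to other stages. Removing them leaves the difference unchanged and acts only through the shared estimate of the spread. The 33 are therefore not 33 separate checks of the arrays compared, here and for the genes below.

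Rpl19, which takes part in a bridge between the subunits, was at 11.76, 11.56 and 11.89 in untreated endothelial cells and 12.29, 12.34 and 12.30 in untreated tumour cells (-0.57 ± 0.13, adjusted p = 0.00298 by limma). Short-term it was at 11.94, 11.52 and 11.59 against 12.20, 12.27, 12.14 and 12.25 (-0.53 ± 0.12). Long-term it was at 12.03, 11.76, 12.14, 12.24 and 11.71 against 12.35, 12.30, 12.29, 12.32 and 12.26 (-0.33 ± 0.10). The groups did not overlap at any stage, and all 7 of its clusters were negative. The long-term call was lost without long-term endothelial array 2 (-0.27) or 5 (-0.26).

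Rps27l, a close relative of Rps27 that p53 induces, had the largest untreated difference among the called genes. It was at 9.52, 8.73 and 8.66 in untreated endothelial and 10.03, 9.92 and 10.47 in untreated tumour cells, a difference of -1.17 ± 0.28 log2 units (adjusted p = 0.00518 by limma). The differences were -1.23 ± 0.26 short-term and -1.01 ± 0.22 long-term, without overlap at either stage, and the calls held in all 33 alternatives for each stage. Rps27l has 1 cluster. Its parent Rps27 had no cluster of its own and was not analysed here. Rpl7, a large subunit protein, was at 11.58, 11.55 and 11.59 against 12.10, 12.15 and 11.76 untreated (-0.43 ± 0.11, adjusted p = 0.0102 by limma). Its differences were -0.42 ± 0.11 short-term and -0.27 ± 0.09 long-term. Its untreated call was lost in 3 of 33 alternatives, among them without untreated tumour array 1 or 2. Its long-term call was lost in 7 of 33, among them without long-term tumour array 1 or 2 or long-term endothelial array 2 or 5.

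**Figure D4:**
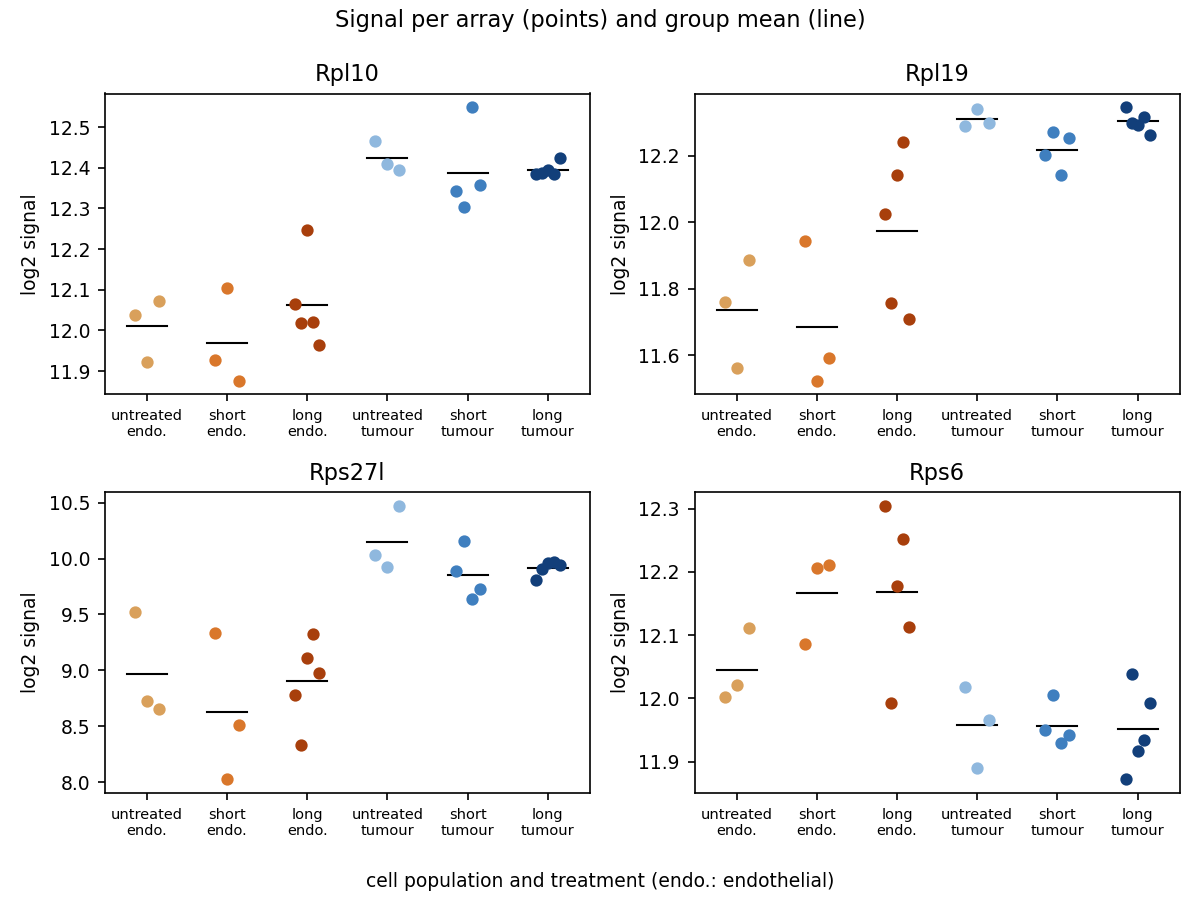
Log2 signal of Rpl10, Rpl19, Rps27l and Rps6 on each array, by cell population and treatment, with group means as lines and a separate vertical scale for each gene. The endothelial arrays lie below the tumour arrays of the same stage for Rpl10, Rpl19 and Rps27l, and most lie above them for Rps6.

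Other large subunit genes were lower at some stages. Rpl30, which binds a kink-turn in RNA and has a dim cluster here, was at 6.75, 6.23 and 5.21 in short-term endothelial against 7.31, 8.25, 7.28 and 7.33 in short-term tumour cells (-1.48 ± 0.32, adjusted p = 0.00151 by limma) and was also called long-term (-0.91 ± 0.27), but not untreated (-0.70 ± 0.34). Rpl14 was called lower short-term (-0.66 ± 0.19) and long-term (-0.42 ± 0.15), and Rpl21 likewise (-0.39 ± 0.12 and -0.30 ± 0.10). The short-term call of Rpl14 was lost without short-term endothelial array 3 (-0.45), and its long-term call, close to the threshold, in 15 of 33 alternatives. Rpl21 lost its short-term call in 4 of 33 alternatives, among them without short-term tumour array 2 or short-term endothelial array 1. Its long-term call was lost in 8 of 33, among them without long-term tumour array 2 or 4 or long-term endothelial array 1 or 4. Rpl9 was lower in short-term cells (-0.81 ± 0.18), as were Rpl8 (-0.51 ± 0.14), Rpl27a (-0.29 ± 0.09) and Rpl23 (-0.24 ± 0.08). Without short-term endothelial array 3 the calls of Rpl8 (-0.29) and Rpl27a (-0.19) were lost, and without array 1 that of Rpl23 (-0.21). The calls of Rpl8, Rpl27a and Rpl23 were lost in 2, 4 and 7 of 33 alternatives. With a gene's clusters averaged the Rpl23 difference was -0.16. The stalk protein Rplp0 was lower in untreated cells, at 11.82, 11.89 and 11.85 in endothelial and 12.23, 12.21 and 12.19 in tumour cells (-0.36 ± 0.12, adjusted p = 0.0353 by limma), without overlap, yet the call was lost when any 1 of the 6 untreated arrays was left out. Rpl26, which binds p53 messenger RNA, was lower in untreated cells (-0.35 ± 0.11, adjusted p = 0.0245 by limma). That call was lost in 8 of 33 alternatives, among them without untreated tumour array 1 or 2 or untreated endothelial array 1 or 2. The Rplp0 call was lost in 10 of 33.

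Among small subunit genes, Rps2 was lower untreated (-0.31 ± 0.09) and short-term (-0.37 ± 0.08), and Rps12 was lower untreated (-0.32 ± 0.10) and short-term (-0.27 ± 0.09). Long-term their differences were smaller and not called. The untreated call of Rps2 was lost in 8 of 33 alternatives, among them without untreated tumour array 3 or untreated endothelial array 1 or 2. That of Rps12 was also lost in 8 of 33, among them without untreated tumour array 1 or 3 or untreated endothelial array 1 or 2. The short-term call of Rps12 was lost in 7 of 33, among them without short-term tumour array 2 or short-term endothelial array 1 or 3. Rps6 ran the other way. It was at 12.30, 11.99, 12.18, 12.25 and 12.11 in long-term endothelial against 11.87, 12.04, 11.92, 11.93 and 11.99 in long-term tumour cells (0.22 ± 0.06, adjusted p = 0.0128 by limma), with overlap through long-term endothelial array 2. Short-term it was at 12.09, 12.21 and 12.21 against 11.95, 12.01, 11.93 and 11.94 (0.21 ± 0.08, adjusted p = 0.0337 by limma), without overlap. Its direction was positive in all alternatives, but the short-term call was lost in 12 of 33 and the long-term call in 6 of 33. Both were lost with median centring (0.14 long-term, 0.10 short-term). The short-term call was also lost without short-term tumour array 1, 3 or 4 or short-term endothelial array 2 or 3. The long-term call was also lost without the 3 endothelial arrays high in macrophage markers (0.19).

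Rps7 was higher in short-term endothelial cells, at 11.88, 11.84 and 11.31 against 11.16, 11.28, 11.26 and 11.30 in short-term tumour cells (0.43 ± 0.14, adjusted p = 0.0222 by limma). The call was lost in 7 of 33 alternatives, among them without short-term endothelial array 1 or 2 or short-term tumour array 1, and with median centring (0.31). Rpl6 was also higher there (0.26 ± 0.10, adjusted p = 0.0476 by limma), close to the threshold, and 25 of 33 alternatives did not call it. Short-term endothelial array 3 held its highest value, 12.18, and without it the difference was 0.12.

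The copies had differences of both signs. Rpl39l, a testis-enriched copy of the exit tunnel protein Rpl39, was called higher in long-term endothelial cells (0.88 ± 0.33, adjusted p = 0.0464 by limma). Its values were 5.08, 3.18, 3.08, 5.19 and 3.10 on long-term endothelial and 3.10, 3.14, 2.97, 2.99 and 3.01 on long-term tumour arrays, so the call rests on long-term endothelial arrays 1 and 4, and it was lost without array 1 (0.60) or array 4 (0.57). It was close to the threshold and was lost in 23 of 31 alternatives. Macrophage and epithelial marker means were 5.16 and 5.38 on array 1, and 7.19 and 7.49 on array 4. Rpl3l, Rpl7l1, Rpl10l and Rpl32l had untreated differences of 0.13 ± 0.12, 0.06 ± 0.29, 0.15 ± 0.15 and -0.09 ± 0.13, none of them called at any stage.

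The sign of a difference was mostly shared by a gene's clusters, while its size varied more in a few genes. Of the 38 genes with more than 1 cluster, all clusters had one sign in 32 in the untreated, 33 in the short-term and 36 in the long-term cell type comparison, and the median spread within a gene was 0.10, 0.11 and 0.06. The widest spreads were 0.43 for Rpl21 untreated, where 3 of 9 clusters were negative, 0.66 for Rplp0 short-term and 0.36 for Rpl27a long-term. The 239 clusters that name a ribosomal protein gene together with other genes, left out of the counts above, had medians of -0.14, -0.20 and -0.08. The genome holds many processed copies of these genes, and how far copies share probes was not tested.

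Several roles in translation were compared beside the ribosomal proteins, from lists of other genes. In untreated cells the median endothelial minus tumour difference was -0.24 for 9 elongation factors, -0.48 for 30 initiation factors, -0.38 for 9 other TOP messages, -0.50 for 20 genes of RNA polymerase I and its factors, -0.48 for 65 ribosome biogenesis factors and -0.51 for 77 mitochondrial ribosomal proteins. Each was further below 0 than the -0.15 of the cytosolic ribosomal proteins. The lists were not matched to them for signal level. Counted by limma's adjusted p, 3 elongation factors, 8 initiation factors, 3 TOP messages, 4 polymerase I genes, 13 biogenesis factors and 16 mitochondrial ribosomal protein genes were lower and 0 were higher, where 10.2% of all genes were lower and 8.18% higher. In the 6 treatment comparisons limma called 0 genes of these lists. At an unadjusted p under 0.05, 10 of 65 biogenesis factors in short-term and 7 in long-term tumour cells, and 6 and 9 in endothelial cells, differed from untreated cells at that level, against 11%, 10.1%, 8.17% and 4.18% of all genes.

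The genes with the smallest p in each list show the size of these differences. Among initiation factors the RNA helicase Eif4a2 had -1.08 ± 0.16 and its partner Eif4b -0.86 ± 0.13 in untreated endothelial minus tumour cells, and among elongation factors Eef1b2, which reloads Eef1a with GTP, had -0.46 ± 0.15. Among biogenesis factors the nucleolar GTPase Gnl3 had -1.46 ± 0.24 and Utp20 -1.04 ± 0.17, and Rrn3, which brings RNA polymerase I to its promoter, had -0.88 ± 0.25. The host gene Gas5, itself a TOP transcript, had -0.55 ± 0.14, and the mitochondrial Mrpl33 had -1.02 ± 0.17. All of these were called lower, and the mTORC1 effector Larp1, which binds TOP messages, was as well (-0.71 ± 0.14). Of the 18 mTORC1 and growth regulators on its list, 4 were called lower and 2 higher. Fau, whose product carries the small subunit protein eS30, had -0.36 ± 0.18 and did not pass. It was the only ribosomal protein gene under another symbol with a cluster of its own.

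**Figure D5:**
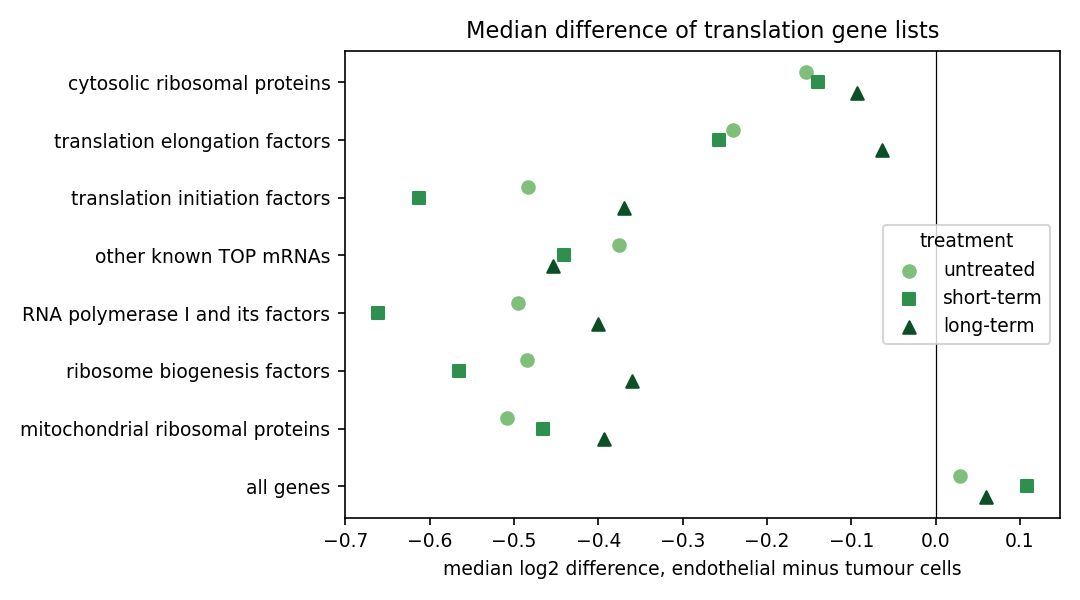
Median log2 difference, endothelial minus tumour cells, of the 60 cytosolic ribosomal protein genes, of 6 other translation lists and of all genes, in untreated, short-term and long-term cells. The ribosomal protein medians lie at -0.15, -0.14 and -0.09, all-gene medians at 0.03, 0.11 and 0.06, and the initiation, polymerase I, biogenesis and mitochondrial lists lie lower, between -0.36 and -0.66.

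In short-term cells 34 of 65 biogenesis factors and 16 of 30 initiation factors were lower and 1 biogenesis factor was higher, against 13 of 60 ribosomal protein genes lower, 17% of all genes lower and 23% higher. In long-term cells the counts lower were 20 of 65 and 9 of 30, with 2 initiation factors higher, against 7 of 60, 16.3% of all genes lower and 15.7% higher. The median SE of the 60 ribosomal protein genes was 0.131 untreated, 0.123 short-term and 0.101 long-term. These use 1 spread per gene pooled over all 23 arrays, so they differ between stages only through the numbers of arrays. The SD of the core gene mean was 0.172 on short-term endothelial arrays, 0.037 on untreated endothelial arrays and 0.035 on short-term tumour arrays. The short-term SE and p-values may therefore be too small.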

How the data were processed

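The authors deposited 1 log2 signal for each transcript cluster and array, made with RMA in the oligo package according to the submitters' processing notes (versions not given in the sources used here). The platform annotation gave 1 gene for 21789 of 35556 clusters, several for 1621 and no entry for 12146. Gene symbols follow RefSeq gene identifiers (GRCm38.p6), and the cluster with the highest mean was kept per gene, with no filter on dim clusters. RefSeq pseudogenes such as Rps4l were left out.

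Differences were tested in R 4.3.3 with moderated linear models (limma 3.58.1), two-sided, Benjamini-Hochberg adjusted over 19938 genes and called at an adjusted p under 0.05. Treatments were compared within the 12 tumour and the 11 endothelial arrays, cell types and differences of effects over all 23, in 11 comparisons. Errors are standard errors unless SD is stated. The fits were tested on simulated data. The number of arrays limits the precision.

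Named are, per comparison, up to 6 called genes per direction by size, filled to 3 by p, plus a fixed panel (stalk proteins, Mdm2 binders, paralogue pairs and others) and, per other translation list, genes among the 3 smallest p. Genes named for level, spread or a value that stood apart, and Rps12, Rps2, Rpl21, Rpl27a and Rpl7 in some cell type comparisons, were chosen after their values were seen. The genes, lists and tests were chosen with earlier results of these data known. Same-numbered replicates did not deviate together (30 pairs, r -0.149 to 0.112), so they were not treated as pairs. The labels do not say whether they share animals, and these correlations cannot settle it.

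Alternatives were only the arrays compared or one fit over all 23, array weights, median centring, renewed quantile normalization, averaging a gene's clusters, a mean-variance trend, keeping genes above the 30th or 50th percentile by mean signal, a block on replicate number, and leaving out each array. Leaving out the 3 endothelial arrays with a macrophage marker mean above 7 was added after seeing the data. For a cell type comparison, most arrays left out in turn belong to other stages, and their removal does not change the difference.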

Additional observations from a re-analysis of the deposited data

Results flagged for a closer look

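In groups of 4 or 5 arrays, 183 sets of values were screened for an array far from the others, and 13 values stood apart. The sets were those of the single genes and of the mean of the core genes. Chance alone marks about 1 in 20 such sets. Short-term tumour array 2 held the highest value of its group for Rpl10a (12.37), Rpl30 (8.25, against 7.28 to 7.33 on the others) and Rpl36a (11.67). Long-term tumour array 1 was lowest for Rpl27a (12.05) and Rps14 (12.31), long-term tumour array 3 was highest for Rpl28 (12.67) and Rplp2 (8.22), array 4 for Rps21 (12.69, against 12.01 to 12.16) and array 5 for Rpl10 (12.42). Long-term endothelial array 2 was lowest for Rpl36a (11.24), Rpl5 (10.76) and Rps3a1 (9.74), and long-term endothelial array 5 for Rpl26 (10.83).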

How the results depend on the processing

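Under every alternative and with each array left out, 0 of the 60 genes were called in the 6 treatment comparisons and for both differences of effects. For endothelial minus tumour cells the untreated count of 8 was 4 with genes above the 50th percentile of mean level, 14 with array weights and 16 with median centring, where the median was -0.24. The short-term median was -0.25 with median centring. The long-term count of 9 was 5 above the 50th percentile and 4 after renewed quantile normalization. With the replicate block, from numbers that the labels do not tie to animals, the counts were 4 untreated, 9 short-term and 4 long-term. Fitting only the arrays compared removes the spread shared across stages. In that fit 13 cell type calls of named genes were lost and 1 was gained. No treatment call changed. With arrays left out in turn the counts ran from 4 to 11 untreated, 12 to 19 short-term and 5 to 12 long-term, and the medians from -0.17 to -0.15 (untreated; -0.1719 to -0.145), -0.24 to -0.10 (short-term) and -0.13 to -0.05 (long-term). The median difference of the short-term effect between cell types ran from -0.0474, without short-term endothelial array 1, to 0.0799, so its sign rests on that array. The short-term endothelial median ran from -0.079 to 0.0379 and was 0.0217 after renewed quantile normalization. The medians of the 8 comparisons without a call ran from -0.08 to 0.16. No gene that was called, or named by p, in a comparison reversed in that comparison. Other values of the fixed panel were not followed through the alternatives. The causes of these shifts were not tested. With 3 to 5 arrays a group, the 95% interval of an endothelial treatment difference reached a median of 0.336 to 0.375 log2 units to either side.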
